A study of Mus musculus with 2 samples.

Results

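The genes described here build and run the entry of the secretory pathway: 39 named genes for translocation into the endoplasmic reticulum (ER), signal peptide cleavage, folding in the ER lumen and the unfolded protein response. They were chosen by name, by matching gene identifiers to GENCODE symbols, and all 39 were found among 43346 annotated gene entries. RNA longer than 200 nt was sequenced from livers of B6NCrl embryos, a mouse strain, taken on embryonic day 15.5, with males and females pooled. Replicate 1 was a pool of 78 embryos and replicate 2 a pool of 62 embryos, the input was 10 ng of RNA per library, and spike-in RNAs were added. Both libraries belong to 1 group as biological replicates, and both pools carried the same donor label, so no treatment, mutant or time was compared. Depth was 34039441 expected counts in replicate 1 and 44200863 in replicate 2, leaving out spike-ins. Levels are TPM, an abundance corrected for transcript length and scaled so that all entries but the spike-ins sum to 1000000.

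Proteins bound for secretion are recognised as they emerge from the ribosome by the signal recognition particle and threaded through the Sec61 channel into the ER, where signal peptidase removes the leader and chaperones and disulfide isomerases fold them. When unfolded proteins accumulate, the sensors IRE1, PERK and ATF6 raise the transcription of chaperones and slow translation, which is known as the unfolded protein response. Hepatocytes secrete most plasma proteins, and the fetal liver does so while it is also the main site of blood formation.

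Liver markers fitted the label. All 8 hepatocyte markers reached 1 TPM, and they summed to 23219 and 19139 TPM in replicates 1 and 2, led by Afp at 11399 and 10353 TPM. The 4 adult globin genes took 38.1% and 38.9% of TPM, and the levels below are shares of a total that includes them. Pancreatic acinar markers, of a neighbouring organ whose cells carry much ER, summed to 101.8 TPM in replicate 1 and 13.1 TPM in replicate 2 over 12 genes. Of these, 5 reached 1 TPM in both libraries, Clps was highest at 31.8 and 4.44 TPM, and Pnlip was listed at 0 in both. Plasma and B cell markers summed to 58.0 and 48.3 TPM over 8 measured genes, with Sdc1 highest at 24.3 and 21.4 TPM and Tnfrsf17 listed at 0 in both. The other marker lists were led by Hba-a2 (erythroid) at 162412 ± 509.6 TPM, S100a8 (granulocytes) at 2549 ± 361 TPM, Pf4 (megakaryocytes) at 243 ± 14.1 TPM, C1qb (macrophages) at 113 ± 16.4 TPM, Col3a1 (mesenchyme) at 101 ± 1.64 TPM and Lyve1 (endothelium) at 21.7 ± 0.646 TPM (SD, n = 2). In whole tissue, fewer cells of a type and less RNA per cell cannot be told apart.

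ER stress response elements are promoter motifs through which ATF6 and XBP1 are known to raise chaperone genes, and the matches found among these genes are shown because they let the members be compared letter by letter. A match is a description of sequence, and binding was not measured. The searched letters were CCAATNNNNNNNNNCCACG for the element called ERSE and ATTGGNCCACG for ERSE-II, on both strands, from 250 bases before to 50 bases after the start (RefSeq, GRCm38.p6). Capitals mark the fixed letters of each match, read 5′ to 3′ on the strand that matches.
Calr (chr8:84847075-84847093, plus strand): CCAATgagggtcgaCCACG
Canx (chr11:50325800-50325818, minus strand): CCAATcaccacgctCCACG
Creld2 (chr15:88819520-88819538, minus strand): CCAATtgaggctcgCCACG
Dnajc3 (chr14:118937827-118937845, plus strand): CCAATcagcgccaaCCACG
Hsp90b1 upstream (chr10:86705638-86705656, minus strand): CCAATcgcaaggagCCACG
Hsp90b1 downstream (chr10:86705533-86705551, plus strand): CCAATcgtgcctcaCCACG
Hspa5 (chr2:34772025-34772043, plus strand): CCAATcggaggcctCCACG
Pdia6 (chr12:17266491-17266509, plus strand): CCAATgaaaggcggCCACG
Dnajb11 (chr16:22857852-22857862, plus strand): ATTGGcCCACG
ERSE was present in 7 of the 32 members with a promoter in the table (21.9%), against 39 of all 32851 promoters (0.119%). The larger count is of promoters, those of the members included. The element is known from chaperone genes and the set was chosen by name to hold them, so this contrast is no test. The 8 ERSE matches lay between positions -212 and -47 from the start. ERSE-II was present in 1 of the 32 members, Dnajb11, at positions 8 to 18 after the start, against 12 of all 32851 promoters (0.0365%). No match fell in the promoter of another member, which says only that these letters are not in those windows. Sec11c, Sec61a1, Spcs3, Manf, Ssr2, Hyou1 and Atf6 had no promoter in the table. The 2 promoters below are shown whole, since Hspa5 was the highest chaperone gene of the set and Hsp90b1 held a pair of matches, the second of them on the opposite strand.
Hspa5 (chr2:34771840-34772139, plus strand): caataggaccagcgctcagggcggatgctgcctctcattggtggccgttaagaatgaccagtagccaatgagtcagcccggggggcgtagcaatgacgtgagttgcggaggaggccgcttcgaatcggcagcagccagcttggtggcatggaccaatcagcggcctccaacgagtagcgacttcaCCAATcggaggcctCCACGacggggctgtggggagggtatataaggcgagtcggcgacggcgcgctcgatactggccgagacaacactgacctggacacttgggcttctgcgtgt
Hsp90b1 (chr10:86705395-86705694, minus strand): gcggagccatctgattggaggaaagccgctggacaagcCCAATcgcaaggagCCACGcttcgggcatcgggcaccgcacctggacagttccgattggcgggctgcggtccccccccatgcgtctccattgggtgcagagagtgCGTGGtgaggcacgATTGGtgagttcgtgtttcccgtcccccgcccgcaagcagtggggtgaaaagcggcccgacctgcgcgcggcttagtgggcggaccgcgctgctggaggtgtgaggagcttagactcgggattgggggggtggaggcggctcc

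The 39 genes together held 4838 TPM in replicate 1 and 4741 TPM in replicate 2, a mean of 4789 ± 68.8 TPM (SD, n = 2). That was 0.479% ± 0.00688 of all TPM. Every gene of the set reached 1 TPM in each library, and 35 reached 10 TPM in both. At 100 TPM or more in both libraries stood 17 of the 39, beside 8.17% of the 11403 protein-coding genes that reached 1 TPM in both. The median gene of the set lay at 68.1 and 73.8 TPM, against 11.7 and 11.3 TPM for those protein-coding genes. Levels within the set spanned from 3.82 ± 0.273 TPM for Eif2ak3 to 673 ± 112 TPM for P4hb (SD, n = 2). P4hb ranked 90 among protein-coding genes by mean level, Hspa5 162 and Calr 173.

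**Figure D1:**
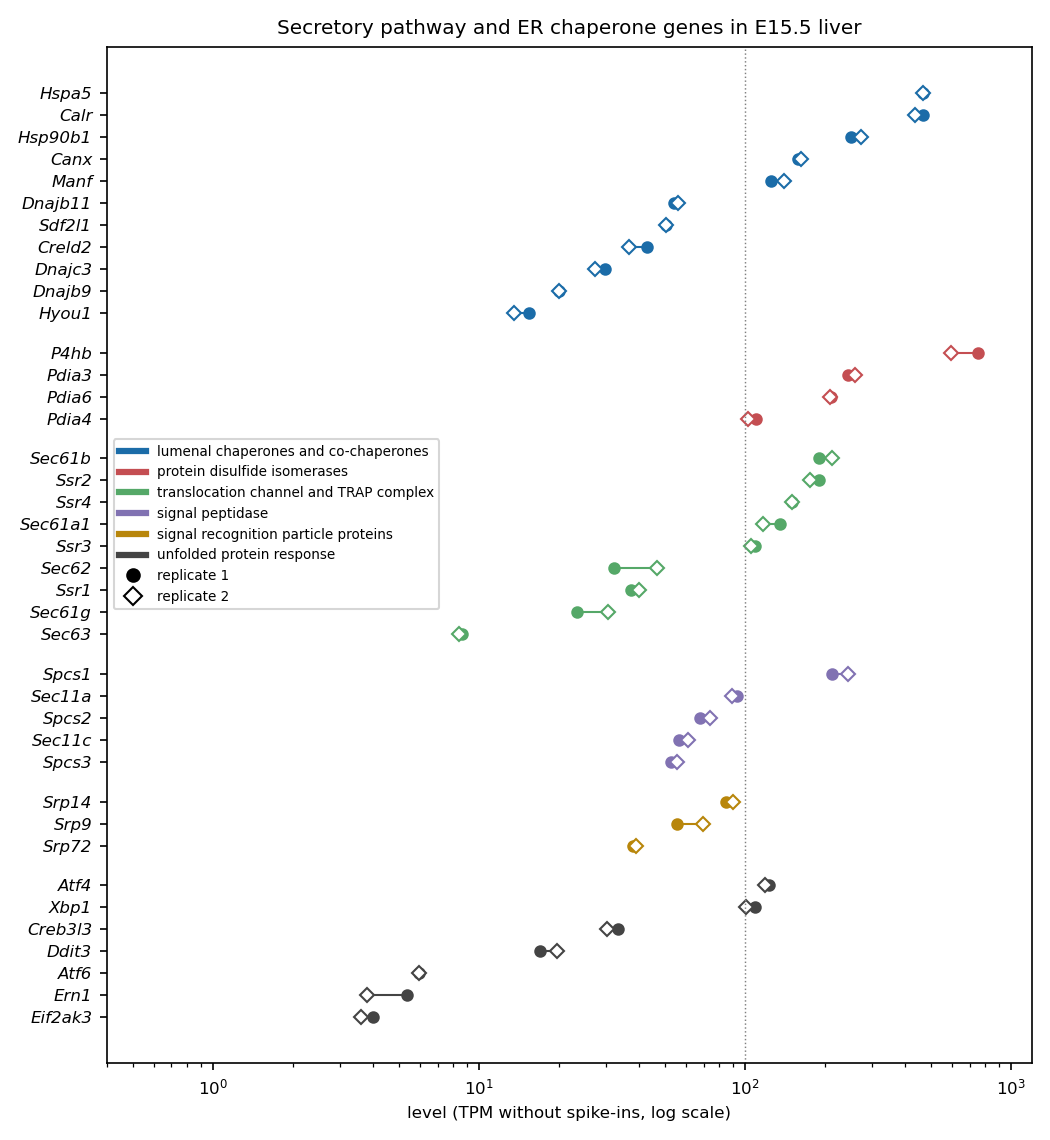
Level of each of the 39 genes in TPM without spike-ins (log axis), grouped by role and sorted by mean within a role; filled circles are replicate 1, open diamonds are replicate 2, and the dotted line marks 100 TPM. The sensors Eif2ak3, Ern1 and Atf6 sit under 10 TPM, while P4hb, Hspa5 and Calr sit above 400 TPM in both libraries.

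Lumenal chaperones and their helpers summed to 1682 TPM in replicate 1 and 1685 TPM in replicate 2 over 11 genes. Hspa5, which encodes BiP, the HSP70 of the ER (chromosome 2, 34771970 to 34777547, GRCm38), had 468.9 TPM in replicate 1 and 469.0 TPM in replicate 2. Calr, which encodes the lectin chaperone calreticulin, had 465.4 and 435.8 TPM in replicates 1 and 2. Their means differed by less than the SD of Calr, which was 20.9 TPM. Hsp90b1, the HSP90 of the ER, had 251.6 and 273.4 TPM. Canx, the membrane-bound relative of calreticulin, had 158.5 and 162.0 TPM, and the ratio of Calr to Canx was 2.81 ± 0.174 (SD, n = 2). Manf, a secreted protein that binds BiP, followed at 124.9 and 140.7 TPM.

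The co-chaperones that regulate BiP were each far below it. Dnajb11, Dnajc3 and Dnajb9, J-domain proteins that stimulate its ATPase, had means of 55.2 ± 1.39, 28.6 ± 1.72 and 20.0 ± 0.0237 TPM (SD, n = 2). Hspa5 stood 8.50 ± 0.214 times above Dnajb11, 16.5 ± 0.990 times above Dnajc3 and 23.4 ± 0.0252 times above Dnajb9. Hyou1, a large HSP70 relative that acts as a nucleotide exchange factor of BiP, was the lowest of the 11 at 15.4 and 13.5 TPM, and Hspa5 exceeded it 32.6 ± 2.99 times. Sdf2l1, which works with the J-domain proteins, stood at 50.4 and 50.3 TPM. Creld2, a stress-induced ER protein, stood at 42.9 and 36.7 TPM. Within this role no gene differed between the libraries by more than 0.32 on the log2 scale.

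The same chaperone families were also measured in other compartments. The ER form Hspa5 reached 0.462 ± 0.0402 of the level of Hspa8, the constitutive HSP70 of the cytosol, and 3.32 ± 0.0921 times that of Hspa9, the HSP70 of mitochondria (SD, n = 2). Hsp90b1 reached 0.490 ± 0.0339 of Hsp90ab1 in the cytosol and 3.63 ± 0.393 times Trap1 in mitochondria. Both ER forms thus lay between the named cytosolic and mitochondrial genes in both libraries. Other cytosolic HSP70 genes stood below Hspa5, with Hspa4 at 34.3 and 38.6 TPM and the heat-inducible Hspa1a at 0.880 and 1.47 TPM in replicates 1 and 2. The highest mitochondrial chaperone gene was Hspe1, a partner of HSP60, at 216.2 and 289.7 TPM. In sum, the 15 lumenal chaperones and disulfide isomerases held 0.754 ± 0.0258 of the TPM of 20 cytosolic chaperone genes.

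**Figure D2:**
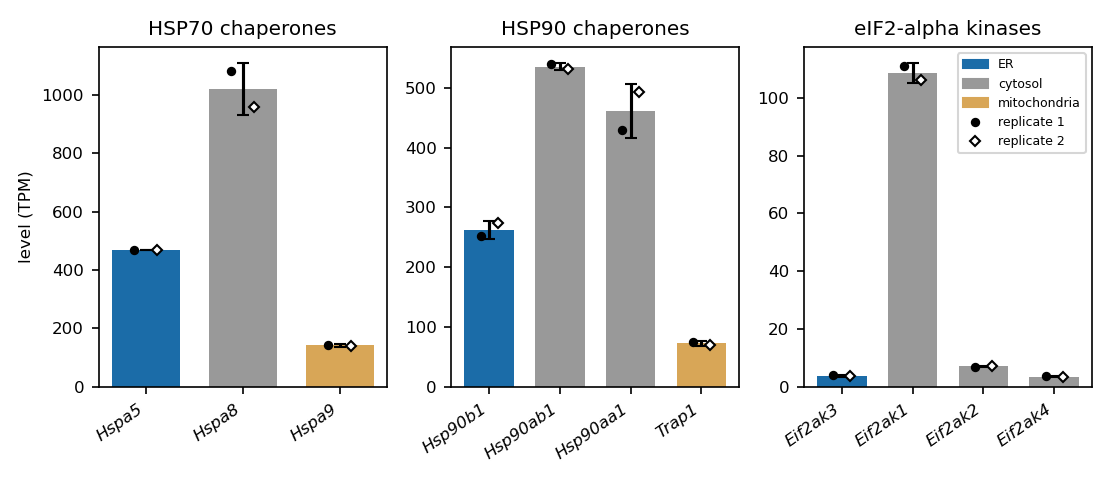
Level in TPM of the ER, cytosolic and mitochondrial forms of HSP70 and HSP90 and of the kinases of eIF2-alpha; bars are means, error bars are the SD over 2 libraries, filled circles are replicate 1 and open diamonds are replicate 2. The ER forms Hspa5 and Hsp90b1 lie between the cytosolic and mitochondrial relatives drawn here, and the ER kinase Eif2ak3 lies far below Eif2ak1.

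Disulfide isomerases, which form and shuffle disulfide bonds in the ER lumen, summed to 1318 TPM in replicate 1 and 1164 TPM in replicate 2 over 4 genes, all of them at 100 TPM or more. P4hb, the classical isomerase and a subunit of prolyl 4-hydroxylase (chromosome 11, 120560298 to 120573253), had 752.0 TPM in replicate 1 and 593.6 TPM in replicate 2. It was higher in replicate 1, 1.27-fold by TPM and 1.14-fold by counts per library total (95% interval 1.13 to 1.16). Pdia3, the isomerase that works with calnexin and calreticulin, had 244.7 and 259.4 TPM, and its ratio to Calr was 0.561 ± 0.0491. Pdia6 had 210.8 and 208.2 TPM, and Pdia4 had 110.3 and 102.8 TPM. P4hb therefore stood 6.30 ± 0.735 times above Pdia4. Part of the P4hb level came from a short entry: P4hb-202, a processed transcript of 414 nt, held 153.0 TPM in replicate 1 and 109.4 TPM in replicate 2. The protein-coding P4hb-201 held 541.7 and 467.1 TPM, and 95.5% of the counts of the gene.

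The translocation channel and the associated TRAP complex summed to 877 TPM in replicate 1 and 886 TPM in replicate 2 over 9 genes. Sec61a1, the pore-forming subunit, had 135.5 and 116.6 TPM. Sec61b, a small tail-anchored subunit, had 190.2 and 212.4 TPM. The ratio of Sec61b to Sec61a1 was 1.61 ± 0.296 (SD, n = 2), and Sec61a1 exceeded its paralog Sec61a2 11.0 ± 0.213 times. The 4 TRAP subunits, which sit beside the channel and assist the entry of some substrates, were unequal. Ssr2 had 190.5 and 175.8 TPM, Ssr4 had 150.7 and 149.7 TPM, and Ssr3 had 108.9 and 105.5 TPM. Ssr1 had 37.4 and 40.0 TPM, and Ssr2 exceeded it 4.75 ± 0.489 times. The reads behind Ssr1 were spread over a leading transcript of 9306 nt, the longest of the set, so a low TPM there rests on 10726 and 15445 expected counts.

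Sec61g, the third channel subunit, appeared at 23.4 TPM in replicate 1 and 30.5 TPM in replicate 2, and Sec61b exceeded it 7.54 ± 0.813 times. This level is uncertain. Its leading transcript, Sec61g-206, shares 49.0% of its 100-base words with Gm10177 (chromosome 9, 37252922 to 37253365), annotated as a transcribed processed pseudogene, meaning a copy made from reverse-transcribed RNA. Gm10177 was credited with 564.3 TPM in replicate 1 and 768.9 TPM in replicate 2, from 5156 and 8836 expected counts, beside 472 and 810 counts for Sec61g. The TPM of the pair summed to 587.8 and 799.4. That is 25.7 ± 0.799 times the level of Sec61g alone and 3.43 ± 0.476 times that of Sec61b. The sum joins TPM taken at unlike lengths, 392 nt for Gm10177 and a mean of 738 nt for Sec61g. At the length of Sec61g the same reads would give less TPM, so both ratios overstate the level Sec61g could have. How the reads divide between the gene and its copy cannot be told apart from these tables.

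Sec62 and Sec63, which assist translocation after synthesis, had 32.2 and 46.8 TPM, and 8.64 and 8.43 TPM, in replicates 1 and 2. Sec62 was the gene of the set with the largest fold difference between the libraries, 1.45-fold lower in replicate 1. By counts per library total the ratio was 0.769 (95% interval 0.724 to 0.817). Most of this TPM came from Sec62-202, a retained-intron entry of 639 nt, which held 18.6 TPM in replicate 1 and 31.0 TPM in replicate 2. The protein-coding Sec62-201, of 3967 nt, held 11.4 and 13.2 TPM. By expected counts the order was reversed, with 77.0% in Sec62-201 and 21.2% in Sec62-202.

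Signal peptidase genes summed to 484 TPM in replicate 1 and 524 TPM in replicate 2 over 5 genes. Spcs1, a small accessory subunit, led at 213.1 and 244.0 TPM. The other accessory subunits Spcs2 and Spcs3 had 68.1 and 73.8 TPM, and 53.0 and 55.7 TPM. Spcs1 exceeded Spcs3 4.20 ± 0.256 times. The catalytic subunits Sec11a and Sec11c, paralogs that serve alternative forms of the enzyme, had 93.7 and 89.3 TPM, and 56.5 and 61.0 TPM, a ratio of 1.56 ± 0.137 (SD, n = 2). For Sec11a this order rests on entries with no coding annotation, since its protein-coding transcripts held 42.3% ± 3.48 of its TPM, or 37.4 and 40.0 TPM. The protein-coding transcripts of Sec11c held 48.6 and 55.6 TPM, so the order of the catalytic subunits turned on this scale.

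The 3 proteins of the signal recognition particle summed to 179 TPM in replicate 1 and 199 TPM in replicate 2. Srp14 and Srp9, which form a dimer that pauses elongation, had 85.1 and 90.5 TPM, and 55.7 and 69.5 TPM. Srp72, a scaffold of the particle, averaged 38.4 ± 0.775 TPM (SD, n = 2). Srp9 shares 12.1% of the 100-base words of its leading transcript with the processed pseudogene Gm13736, which was credited with 69.7 and 87.7 TPM, so its level is uncertain too. The TPM of Srp9 and Gm13736 summed to 125.5 and 157.3. The ratio of Srp14 to that sum was 0.627 ± 0.0728, in place of 1.41 ± 0.160 for Srp9 alone. That sum joins TPM taken at unlike lengths, 253 nt for Gm13736 and a mean of 1265 nt for Srp9. Gm13736 had 335 and 567 expected counts, beside 2061 and 3342 for Srp9. At the length of Srp9 the reads of Gm13736 would add less TPM, so the sum does not show that Srp14 was below Srp9. The RNA of the particle, in the entry Rn7s1, stood at 9226 and 9143 TPM, with near-identical values for its copy Rn7s2, between which reads may be divided.

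Genes of the unfolded protein response fell into sensors at low level and transcription factors at higher level. Eif2ak3, which encodes the sensor kinase PERK, had 4.01 TPM in replicate 1 and 3.62 TPM in replicate 2, from 529 counts (exact 95% Poisson interval 485 to 576) and 663 counts (613 to 715). Ern1, which encodes the sensor IRE1-alpha, had 5.37 and 3.81 TPM. Atf6, the sensor that is itself cleaved into a transcription factor, had 5.96 TPM in each library. Ern1 was 1.41-fold higher in replicate 1 by TPM, but 1.21-fold by counts per library total (95% interval 1.07 to 1.36). Its full-length coding form Ern1-201 held 2.10 and 1.73 TPM, and a coding entry of 660 nt, Ern1-202, held 2.14 and 1.34 TPM.

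Atf4, the factor translated when PERK or another kinase phosphorylates eIF2-alpha, had 123.3 TPM in replicate 1 and 118.7 TPM in replicate 2. Xbp1, whose messenger RNA IRE1 splices (chromosome 11, 5520659 to 5525893), had 108.7 and 101.1 TPM. Each stood far above its sensor, Xbp1 23.4 ± 4.44 times above Ern1 and Atf4 31.8 ± 1.43 times above Eif2ak3 (SD, n = 2). Creb3l3, a hepatic factor processed like ATF6, had 33.4 and 30.2 TPM. Ddit3, which encodes the stress factor CHOP, had 17.0 and 19.7 TPM, and Atf4 exceeded it 6.63 ± 0.874 times. Ddit3 overlaps the opposite-strand gene Mars, at 101.2 and 103.3 TPM, over 7.64% of its exon bases. Whether strand was used in counting is not given in the sources used here, so reads in that stretch cannot be told apart.

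The spliced form of Xbp1 was not measured. Xbp1-201 held 89.8% ± 0.828 of the Xbp1 TPM, and the annotation lists 4 forms whose shortest intron is 300 nt. The stretch that IRE1 removes is known to be far shorter than any of these introns, so its removal is not annotated as an intron and no entry stands for it.

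Other kinases can phosphorylate eIF2-alpha, and they were set beside Eif2ak3. Eif2ak1, the heme-regulated kinase known from red cell precursors, had 111.0 TPM in replicate 1 and 106.2 TPM in replicate 2, 28.5 ± 1.14 times Eif2ak3 (SD, n = 2). Eif2ak2, the kinase activated by double-stranded RNA, was 1.85 ± 0.206 times Eif2ak3, and Eif2ak4, the amino acid sensor, 0.914 ± 0.0171 times. Atf6b, a paralog of Atf6, stood 3.19 ± 0.140 times above it.

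Few genes of the set differed by much between the 2 libraries, and the same was true of all genes. Replicate 1 was set over replicate 2 as the log2 ratio of TPM + 1, counted in genes at 5 TPM or more in either library, which 38 of the 39 reached. Eif2ak3 did not. None of the 38 differed by more than 1.5-fold, beside 1.83% of 8781 genes, and none by more than 2-fold, beside 0.672%. At a looser limit of 0.32 on the log2 scale, 2 of the 38 were higher in replicate 1, P4hb and Ern1, beside 5.45% of genes. At that limit 2 of the 38 were lower in replicate 1, Sec62 and Sec61g, beside 3.66% of genes. Srp9 lay just inside that limit at a log2 ratio of -0.31. With protein-coding entries alone, P4hb and Sec62 came inside it too, at log2 ratios of 0.31 and -0.20, while Ern1 and Sec61g stayed outside at 0.40 and -0.37. With 1 library on each side there is no test, and these counts describe these libraries only.

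The median log2 ratio of the 38 was -0.0001, against 0.04 for all 8781 genes, with 19 higher and 19 lower in replicate 1. Shorter genes of the set leaned lower in replicate 1: the 13 with a mean length under 1500 nt had a median log2 ratio of -0.11, and the 25 longer ones 0.02. The same lean was present in all genes, at -0.03 for 2611 shorter and 0.07 for 6170 longer genes. The 3 genes of the signal recognition particle and 4 of the 5 signal peptidase genes were lower in replicate 1. Beside them stood 39.2% of all 8781 genes, 56.0% of those under 1500 nt and 32.1% of the longer ones. Among the lower genes, Srp72, Spcs2 and Spcs3 were longer than 1500 nt. By counts per library total, the 95% interval lay wholly above 1 for 11 of the 39 genes, beside 24.4% of the 8781 genes, and wholly below 1 for 18, beside 25.2%. These intervals cover counting error only and narrow with depth, so the shares depend on how many counts a gene has. The part of length in these differences was not tested.

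**Figure D3:**
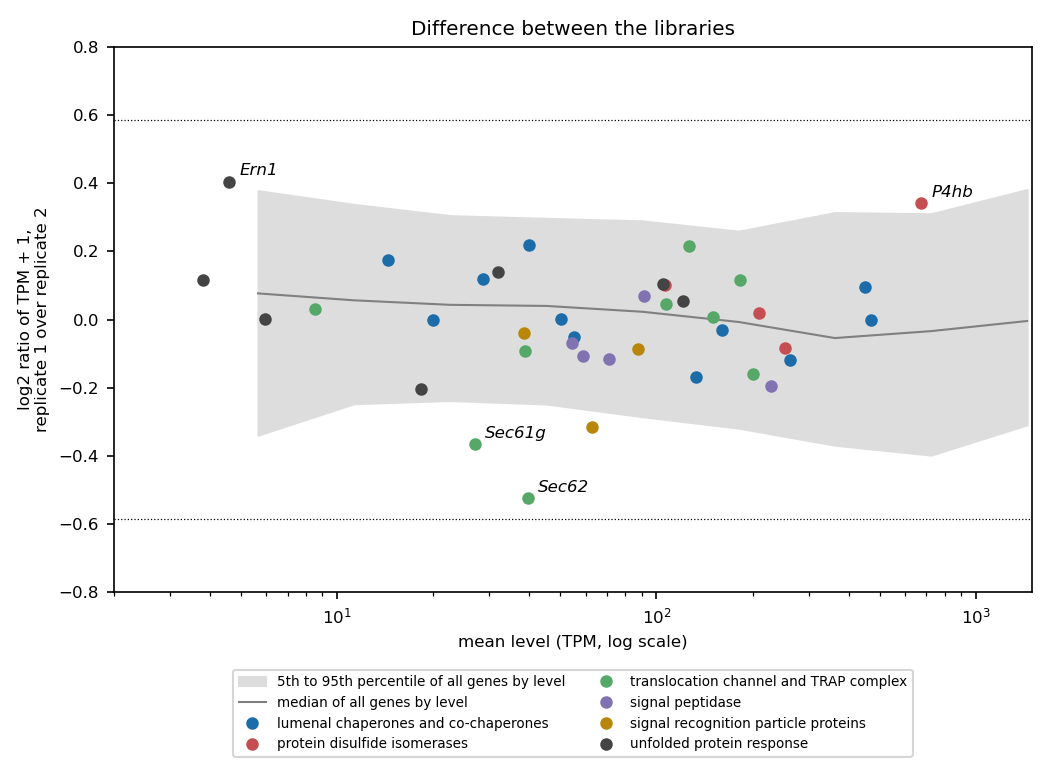
Log2 ratio of TPM + 1, replicate 1 over replicate 2, against mean level (log axis) for the 39 genes, coloured by role; the grey band holds the 5th to 95th percentile and the grey line the median of all genes at a similar level, and dotted lines mark 1.5-fold. All points lie inside the dotted lines, with P4hb and Ern1 highest and Sec62 and Sec61g lowest.

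The load of secreted protein RNA differed between the libraries more than the folding genes did. The 21 secreted plasma protein genes summed to 62424 TPM in replicate 1 and 50602 TPM in replicate 2. They were led by Trf, the transferrin gene, at 15233 and 10337 TPM. Of the 21, 20 were higher in replicate 1, beside 5338 of all 8781 genes at 5 TPM or more in either library. Lumenal chaperones and disulfide isomerases together summed to 3000 TPM in replicate 1 and 2849 TPM in replicate 2. The ratio of plasma protein RNA to folding gene RNA was therefore 20.8 in replicate 1 and 17.8 in replicate 2, a mean of 19.3 ± 2.15 (SD, n = 2). Hepatocyte markers were 1.21-fold higher in replicate 1 in sum and higher for 8 of 8. Of these 8, Alb, Afp, Ttr, Ahsg, Fgb and Apob are also among the 21 plasma protein genes. The marker sum therefore largely repeats the same values. The markers outside that list, Hnf4a and Cebpa, had 17.6 and 11.9 TPM in replicate 1 and 15.7 and 9.48 TPM in replicate 2. Pancreatic acinar markers were 7.80-fold higher in replicate 1 in sum. Their part in the difference was not tested.

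The members that carried ERSE had a median of 209.5 TPM over 7 genes, from 28.6 TPM for Dnajc3 to 468.9 TPM for Hspa5. The 25 with a promoter and no ERSE had a median of 62.6 TPM, from 3.82 TPM for Eif2ak3 to 673 TPM for P4hb, so the ranges overlapped. The 7 were chaperones, co-chaperones and an isomerase, while no gene of translocation, signal peptidase or the response itself, where the table had its promoter, held the element. Among 102 further pathway genes with a promoter in the table, ERSE was found in Derl3, Ero1b and Syvn1. These stood low, with Derl3 at 0.207 and 0.227 TPM and Syvn1 at 15.8 and 12.2 TPM in replicates 1 and 2, and Ero1lb, the older symbol of Ero1b, at 2.09 and 1.68 TPM. ERSE-II was found in Herpud1 and Krtcap2, at 138 ± 15.5 and 112 ± 6.48 TPM (SD, n = 2).

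The rest of the pathway was described by 10 lists of 127 symbols, of which 120 were measured. In both libraries 117 reached 1 TPM and 20 reached 100 TPM. Beside the 20 stood 8.17% of the 11403 protein-coding genes that reached 1 TPM in both. In 108 that entered the comparison of libraries, 73 were higher and 35 lower in replicate 1, beside 39.2% of all 8781 genes lower. The limit of 0.32 on the log2 scale was passed by 4, beside 5.45% of genes higher and 3.66% lower in replicate 1. Past 1.5-fold stood 0, beside 1.83% of genes. Oligosaccharyltransferase, which adds N-glycans as chains enter the ER, summed to 1705 TPM in replicate 1 and 1722 TPM in replicate 2 over 12 genes. Its small subunits Ost4 and Tmem258 led at 296 ± 10.9 and 255 ± 27.1 TPM, and Magt1 was lowest at 27.1 ± 0.791 TPM. ER-associated degradation was led by Vcp, the ATPase that extracts misfolded proteins, at 188 ± 1.03 TPM, and Herpud1, with Derl3 at the bottom. Among other oxidoreductases, the peroxiredoxin Prdx4 had 171 ± 0.347 TPM and Tmx1 had 109 ± 1.17 TPM.

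Vesicle traffic out of the ER and back was measured alongside. COPII coat genes, which carry cargo forward, were led by Sec13 at 108 ± 0.785 TPM and Preb at 90.4 ± 6.12 TPM, with Sec16b lowest at 6.46 ± 0.484 TPM. Genes for return traffic were led by Arf1 at 243 ± 9.35 TPM and Cope at 199 ± 36.8 TPM, and Kdelr3, a receptor that returns ER residents, was lowest at 4.56 ± 0.515 TPM. The cargo receptor pair Lman1 and Mcfd2 stood at 82.7 ± 5.92 and 82.2 ± 10.1 TPM, and Uggt2, a paralog of the folding sensor, at 1.24 ± 0.442 TPM. Tram1 and Emc8, which help insert membrane proteins, had 95.1 ± 4.30 and 94.7 ± 2.49 TPM, and Tram2 had 1.56 ± 0.0696 TPM. For the signal recognition particle and its receptor, Srp19 had 95.5 ± 7.49 TPM, Srpr 50.1 ± 0.701 TPM and Srprb 18.8 ± 2.33 TPM.

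Further stress response genes and collagen chaperones completed the lists. Asns, a target of ATF4, had 287.0 TPM in replicate 1 and 297.8 TPM in replicate 2. Ppp1r15a, which directs the removal of phosphate from eIF2-alpha, had 301.7 and 259.9 TPM, and Creb3l4 was the lowest of its list at 0.342 and 0.444 TPM. The collagen chaperone Serpinh1 had 70.9 and 69.4 TPM, Crtap 19.3 and 18.1 TPM, and P4ha2 5.21 and 4.27 TPM. P4hb, which also serves as a subunit of the prolyl hydroxylase that contains P4ha2, was far above it in both libraries.

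Within genes, one transcript usually held most of the RNA. The 39 genes had 170 transcript entries, the median share of the leading one was 89.8% of the TPM of its gene, and it was the same in both libraries for 37. Canx was an exception, with Canx-205 at 92.0 TPM in replicate 1 and 79.4 TPM in replicate 2, and Canx-201 at 65.5 and 80.1 TPM. Ern1 was the other, as its 2 leading forms changed places. The leading form held under 60% in 6 genes: Canx, Ern1, Sec11a, Sec61g, Srp72 and Ssr4. In Ssr4 both leading forms code for protein, Ssr4-208 at 53.9% ± 0.452 and Ssr4-201 at 28.9% ± 0.410. In Sec11a the coding Sec11a-201 held 42.3% ± 3.48 and the processed transcript Sec11a-209 held 36.8% ± 1.96. In Sec61g the leading forms Sec61g-206 and Sec61g-202 held 49.5% ± 0.0391 and 15.3% ± 0.200.

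Entries annotated as non-coding took a large part of some genes. Protein-coding transcripts held under 80% of TPM in 5 of the 39 genes: Srp14, Manf, Srp72, Sec11a and Sec62. In Manf the retained-intron entry Manf-205 held 36.0% ± 0.564, and in Srp72 the retained-intron entry Srp72-209 held 33.5% ± 0.0552 (SD, n = 2). These entries are short, 502 nt and 660 nt, and held 20.5% and 8.26% of the counts of their genes. In Hspa5, Hspa5-202 held 82.1% ± 0.0412 and the short Hspa5-204, annotated for nonsense-mediated decay, 12.8% ± 1.10. Counting protein-coding entries alone, with entries that M21 does not list kept, the 39 genes held 4276 TPM in replicate 1 and 4195 TPM in replicate 2, which is 88.4% of the full sum, and 15 were at 100 TPM or more in both. These entries of one gene share exons, so the division of reads among them is an estimate.

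**Figure D4:**
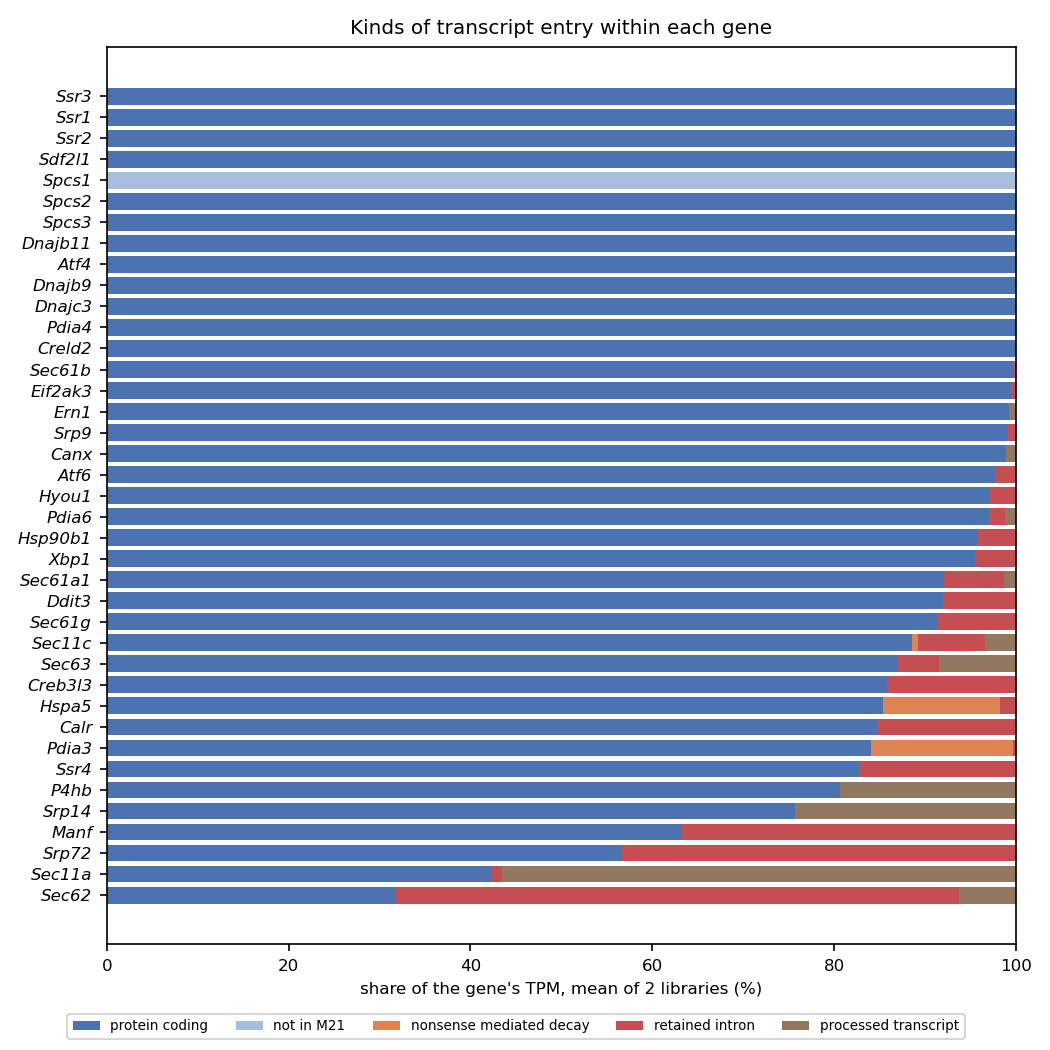
Share of the TPM of each of the 39 genes held by each kind of transcript entry, as the mean of 2 libraries in percent, with genes sorted by their protein-coding share. Sec62, Sec11a, Srp72, Manf and Srp14 fall under 80% protein-coding; the Spcs1 entries are not in the M21 annotation.

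Sequence shared with other genes touched few members. Of the 38 leading transcripts that could be checked, 31 held no 100-base word of another gene, and Sec61g and Srp9 were the 2 above 10%. With words of 50 bases, 27 held none and 4 were above 10%: Sec61g at 52.6%, Sec61b at 33.8%, Srp9 at 15.5% and Hsp90b1 at 13.8%. Sec61b shared its words, 9.68% of those of 100 bases, with Gm10320, which stood at 0.642 and 1.24 TPM in replicates 1 and 2. Hsp90b1 shared 7.63% of its words of 100 bases with other genes, and 6.38% with the pseudogene 1810014B01Rik, at 3.36 and 3.76 TPM. That pseudogene lies on the opposite strand, over 14.7% of the exon bases of Hsp90b1. Hsp90b1 also overlaps the short microRNA entry Gm25745 on the same strand. Gm25745 was credited with 309.9 TPM in replicate 1 and 268.5 TPM in replicate 2 from 328 and 383 counts. Those counts are few beside the 20902 and 29621 of Hsp90b1. Sec61a1 overlaps the opposite-strand gene Gm44170, which was not among the measured entries, over 17.3% of its exon bases. Since strand use in counting is not given, reads in such opposite-strand stretches cannot be told apart.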

How the data were processed

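Values came from the gene and transcript tables deposited for 2 libraries. Assembly mm10 and annotation M4 are named in the submitters' processing notes. Which quantifier was run is not given in the sources used here. As deposited, expected counts estimate the reads of each gene or transcript and are not scaled. TPM and its posterior mean, as deposited, are corrected for length and scaled to 1000000 with spike-ins included. Here 97 spike-in entries were dropped and TPM was rescaled to 1000000. Most effective lengths were 99 nt below the lengths, which raises the TPM of short entries. GENCODE M21 (GRCm38) gave symbols, coordinates and biotypes.

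The 39 genes and the other lists were chosen with earlier results of these data known. Named genes were all 39, the 2 highest and the lowest of each pathway list, the highest of each comparison or marker list, and the leading transcripts. Other genes named were chosen after their values were seen. Libraries were compared as log2 of TPM + 1, replicate 1 over replicate 2, with the exact 95% Clopper-Pearson interval of the count ratio scaled by library totals. PCR copies are not independent molecules, so intervals cover counting error only. A single library on each side allows no p-value. Alternatives were TMM (edgeR 4.0.16), median of ratios (DESeq2 1.42.0) on rounded expected counts, posterior mean TPM, other limits, removal of adult globins, a pseudocount of 0.1 and each library alone. Protein-coding entries alone, sums with a near-identical copy, and the looser limit under count scalings were chosen after the data were seen. Shared words of 100 and 50 bases were sought among transcripts on either strand. Python 3.11.15, pandas 2.3.3, NumPy 2.4.6, SciPy 1.17.1, matplotlib 3.10.9 and R 4.3.3 were used.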

Additional observations from a re-analysis of the deposited data

How the results depend on the processing

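The summed level of the 39 genes was 4789 TPM, 7785 when the 4 adult globins were left out of the total of 1000000, and 4236 with protein-coding entries alone. Each library alone gave 4741 to 4838 TPM. The number of genes at 100 TPM or more was 17, also with either library alone (17 to 17), and 7 at a limit of 200 TPM. The median log2 ratio of the genes was -0.0721 under TMM (all genes -0.017) and -0.0741 under DESeq2 size factors (all genes -0.0189). None passed 1.5-fold under these scalings. At the looser limit of 0.32 on the log2 scale 4 genes passed by TPM. With expected counts scaled by library total, 2 genes passed, Sec61g and Sec62, and with TMM or DESeq2 size factors 3 passed, these and Srp9, all lower in replicate 1. P4hb and Ern1 passed by TPM and by none of these count scalings. The ratio of plasma protein RNA to folding gene RNA was 17.8 to 20.8 with either library alone. Xbp1-201 held 95.2% of the Xbp1 expected counts, and 89.2% to 90.3% of TPM with either library alone. Posterior mean TPM moved 7 of the 39 levels by more than 1 SD. Where the SD was very small, a slight shift passed this limit. Hspa5 went from 468.9 to 462 TPM with an SD of 0.0504, and Dnajb9 from 20.03 to 19.73 TPM with an SD of 0.0237. No paired analysis was possible because the labels give 1 group only. A pair of libraries gives an SD with little precision, and no alternative can show how other pools would vary.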
